A study of Mus musculus with 4 samples.

Results

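The genes described here encode the proteins of the cytosolic ribosome, read in mouse gastrocnemius muscle on 4 Affymetrix expression arrays. A gene was taken when a probe set annotated to it alone carried a symbol starting with Rpl or Rps and a digit, or the symbol Rplp0, Rplp1, Rplp2 or Rpsa, with the S6 kinases and pseudogene symbols left out. This gave 50 genes with 106 probe sets, out of 18193 genes with a single-gene probe set on the array. Where a gene had several probe sets, the one with the highest mean signal stood for it. Of the 50, 22 encode proteins of the large subunit, 21 proteins of the small subunit and 6 are paralogues of a core protein (Rpl3l, Rpl22l1, Rpl7l1, Rpl39l, Rps27l and Rps4l). The remaining one, Rps19bp1, matches the symbol rule but encodes a protein that binds RPS19 and is no subunit. Rpl3, Rpl5, Rpl10, Rpl36a, Rplp1 and Rps27a had no probe set annotated to them alone and are not among the 50.

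The arrays cover muscle of FoxO1,3,4-/- mice after 24 h without food, FoxO1,3,4-/- mice that were fed, FoxO1,3,4 f/f mice after the same starvation and FoxO1,3,4 f/f mice that were fed. All mice were males of a cross of C57BL/6N and FVBN, the methods give an age of 2 to 4 months for the mice of the study as a whole, and all carried floxed FoxO1, FoxO3 and FoxO4 alleles. In the knockout, Cre was driven by the promoter of the fast myosin light chain MLC1f, which acts in type II fibres, so FoxO genes of type I fibres and of cells that are not fibres were not targeted. The f/f mice, which the labels call wild type, were the control. Each array was hybridised with 1 pool of RNA from 6 muscles of 3 mice, so every group has 1 array, no difference has a replicate check and no p-value can be given. Values are MAS 5.0 signals, a brightness on a linear scale, and a ratio of at least 1.5-fold in either direction, which is the threshold of the study, is counted as past the threshold.

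The ribosome translates mRNA into protein, and because its many proteins are needed in equal numbers and in large supply, their mRNAs are among the most abundant of most cells. Ribosomal protein mRNAs open with a C followed by a run of C and T bases at the cap, the terminal oligopyrimidine (TOP) tract, through which LARP1 and the nutrient-sensing kinase mTORC1 hold back or release their translation. When nutrients are short, control of these genes is therefore known to act largely on translation rather than on the amount of mRNA, and an array reads only the mRNA. FoxO factors are transcription factors that insulin signalling keeps out of the nucleus and that starvation brings into it.

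Start sites of 44 of the 50 genes were in the RefSeq promoter table (GRCm38.p6). The windows below run from 10 bases before the annotated start to 20 bases into the transcript, on the strand of the gene, and were chosen to show start sites with and without a tract among genes whose signals are described further on. Capitals mark a C followed by at least 7 C or T.
Rps6, chr4:86857348-86857377, minus strand: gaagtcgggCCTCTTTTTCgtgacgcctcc
Rpl38, chr11:114668570-114668599, plus strand: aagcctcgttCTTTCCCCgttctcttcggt
Rplp2, chr7:141447641-141447670, plus strand: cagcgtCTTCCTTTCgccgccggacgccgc
Rpl22l1, chr3:28805498-28805527, plus strand: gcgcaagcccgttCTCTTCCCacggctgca
Rps28, chr17:33824543-33824572, minus strand: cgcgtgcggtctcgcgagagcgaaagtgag
Rpl3l, chr17:24727816-24727845, plus strand: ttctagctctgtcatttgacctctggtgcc
Rpl7l1, chr17:46782637-46782666, minus strand: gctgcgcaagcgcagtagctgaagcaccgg
Rpl39l, chr16:10170218-10170247, plus strand: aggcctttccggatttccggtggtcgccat
Such a tract, starting within 20 bases of an annotated start, was found in 21 of the 44 genes (47.7%), against 15.7% of the 27025 genes of the table. It was found in 12 of 20 large subunit genes, 7 of 18 small subunit genes and 2 of 5 paralogues. A missing match does not show that a gene lacks a TOP tract, since shorter runs and unlisted starts were not counted. In the windows of the table (250 bases before to 50 after the start), read on both strands, the letters CCGGAAG, of the kind ETS factors bind, were found in 21 of the 44 (47.7%), against 9.93% of all genes. The letters AAGATGGC, of the kind YY1 binds, were found in 4 (9.09%), against 3.19%. The forkhead letters GTAAACA, of the kind FoxO factors bind, were found in 1 gene, Rpl41 (2.27%), against 4.05% of all genes. A match is a description of these letters and does not show a binding site.

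The labels were first checked on the targeted genes. Foxo4 had a signal of 34.3 and 31.3 in starved and fed knockout muscle, against 291.3 and 296.9 in starved and fed control muscle, and Foxo1 had 165.5 and 185.2 in knockout muscle, against 554.4 and 303.8 in control muscle. Foxo3 read 460.9 and 297.3 in starved and fed knockout muscle, against 477.8 and 250.1 in control muscle, and so did not separate the genotypes. All 9 muscle fibre markers (among them Acta1, Ckm and Myh4) passed the filter on dim probe sets and summed to between 128205 and 136884 on the 4 arrays, with none past 1.5-fold in any comparison. The arrays differed in their median signal: over 45037 probe sets it was 22.9 and 23.8 on the starved and fed knockout arrays, against 26.0 and 26.3 on the starved and fed control arrays. This gap was not the same at all signals. For knockout over control in starved muscle, the median log2 ratio was -0.16 over all genes and 0.0098 over genes averaging at least 4000. Scaling to the same median moves bright genes by the same factor as dim ones. Ratios between genotypes are therefore given beside those of all 12565 genes past the filter.

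Most of the ribosomal protein genes were among the brightest on the array, and their signals were nearly level over the 4 arrays. The mean signal was at least 4000 for 37 of the 50, a level that 313 of the 12565 genes (2.49%) reached, the 37 included, while 1 (Rpl37) averaged 948.4 and 12 averaged 376 or less. The level of 4000 was chosen after the values were seen, since no gene of the group averaged between 948.4 and 4042.9. A signal depends on the probes as well as on the transcript, so that this order ranks probe sets and not amounts of mRNA. The 5 brightest were Rps29, Rpl38, Rps28, Rps14 and Rplp2. Rps29, a small subunit protein, had 15393.3 and 15203.5 in starved and fed knockout muscle, against 16207.7 and 16115.8 in starved and fed control muscle. Rpl38, a large subunit protein with a role in the translation of Hox mRNAs in the mouse embryo, had 12218.2 and 11512.0 in knockout muscle, against 12423.7 and 12587.9 in control muscle. Rps14, a small subunit protein of the decoding platform, had 11048.2 and 10378.1 in knockout muscle, against 11304.9 and 11088.1 in control muscle. In all 3 the highest of the 4 signals was within 1.2-fold of the lowest.

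**Figure D1:**
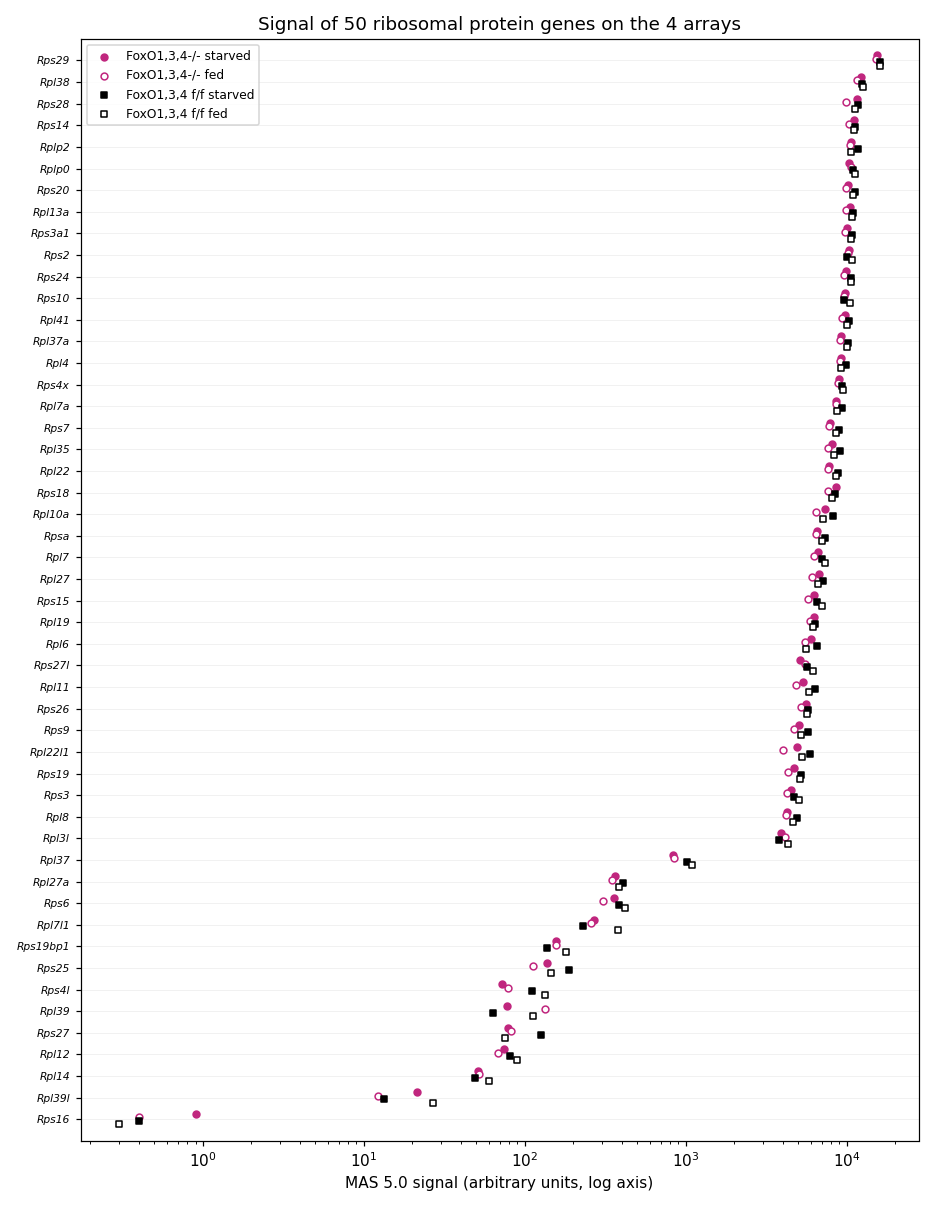
Signals of the 50 ribosomal protein genes (rows, ordered by mean signal) on the 4 arrays, with the MAS 5.0 signal on a log axis; each point is 1 array of pooled RNA. The points of the 37 genes with a mean of at least 4000 lie close together, and those of dim genes such as Rpl39l and Rps16 spread.

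Within the 37 bright genes the 4 arrays differed little. A width of 1.2-fold, set after the values were seen, was used to describe this. For 30 of the 37 (81.1%) the highest signal was within 1.2-fold of the lowest, against 169 of the 313 genes of this brightness (54.0%), and none of the 37 passed 1.5-fold in any comparison. The summed signal of the 37 was 299158 and 286463 on the starved and fed knockout arrays, against 319602 and 312557 on the starved and fed control arrays. As a share of all signal on its array, which does not depend on how an array was scaled, this was 2.67% and 2.51% in starved and fed knockout muscle, against 2.60% and 2.45% in starved and fed control muscle. The share was thus slightly higher on the starved than on the fed array in both genotypes. In bulk RNA, fewer cells of a type and less RNA per cell cannot be told apart.

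In knockout muscle, 2 of the 50 genes were past 1.5-fold upwards after starvation (Rpl39l and Rps16) and 1 downwards (Rpl39), against 7.38% and 9.45% of all genes. The median log2 ratio of the 50, starved over fed, was 0.059, against -0.059 over all genes. Above 0 were 42 of the 50, against 5283 of the 12565 genes. Among the 37 bright genes the median was 0.065 with an interquartile range of 0.083, against -0.0060 and 0.15 over the 313 genes of this brightness, of which 3.51% passed 1.5-fold upwards and 1.28% downwards. The highest bright gene was Rpl22l1, at 0.29, and the lowest was Rps27l, at -0.11. Next highest was Rps28, a small subunit protein near the mRNA exit channel, with 11515.4 in starved and 9944.9 in fed knockout muscle and a log2 ratio of 0.21. Rpl10a, a large subunit protein, had 7308.3 in starved and 6470.5 in fed knockout muscle, a log2 ratio of 0.18.

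In control muscle, 1 of the 50 was past 1.5-fold upwards after starvation (Rps27) and 3 downwards (Rpl39l, Rpl39 and Rpl7l1), against 9.23% and 14.2% of all genes. The median log2 ratio was 0.028, against -0.11 over all genes, with 31 of the 50 above 0, against 5001 of the 12565 genes. The 37 bright genes had a median of 0.037 and an interquartile range of 0.10, against -0.11 and 0.26 over the 313 genes of this brightness, of which 4.47% passed upwards and 3.19% downwards. Rpl6 and Rpl10a, both of the large subunit, were the highest of the 37. Rpl6 had 6533.5 in starved and 5616.7 in fed control muscle, a log2 ratio of 0.22. Rpl10a had 8243.6 in starved and 7108.2 in fed control muscle, a log2 ratio of 0.21. Rpl3l was the lowest of the 37, at -0.20. Medians of the 50 genes were above 0 in both genotypes under every scaling of the arrays that was tried, from 0.047 to 0.11 in knockout muscle and from 0.028 to 0.094 in control muscle.

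**Figure D2:**
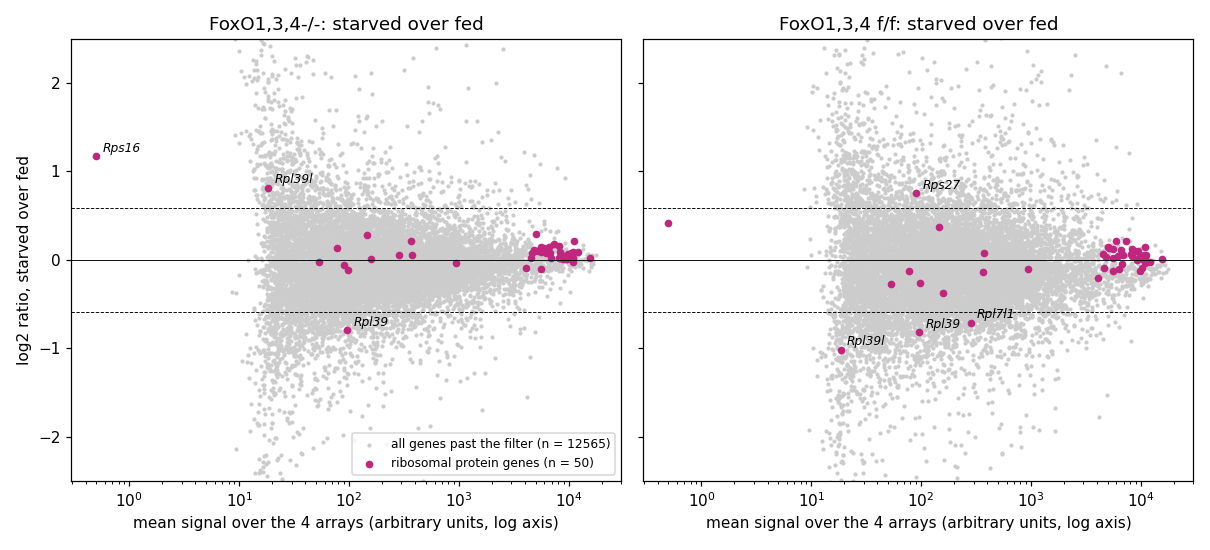
Log2 ratio of each gene (vertical axis) against its mean MAS 5.0 signal (log axis) for starved over fed, in FoxO1,3,4-/- muscle on the left and FoxO1,3,4 f/f muscle on the right, with the 50 ribosomal protein genes over all genes past the filter; dashed lines mark 1.5-fold, and genes beyond the vertical axis are not drawn. Ribosomal protein genes past a dashed line are all of low signal, and the bright ones lie in a narrow band near 0.

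The starvation response of the group differed little between genotypes. The log2 ratio in knockout minus that in control had a median of 0.036, against 0.041 over all genes, and was past 1.5-fold upwards for 3 of the 50 (Rpl39l, Rpl7l1 and Rps16) and downwards for 1 (Rps27), against 12.3% and 10.4% of all genes. None of the 37 bright genes was past 1.5-fold in this difference, against 1.6% of genes of this brightness upwards and 0.639% downwards. Their median was 0.028, against 0.10 over the 313 genes of this brightness, and their range was -0.13 (Rplp2) to 0.23 (Rps15). Rps15, a small subunit protein near the decoding centre, had 6254.8 and 5740.9 in starved and fed knockout muscle, against 6528.6 and 7035.0 in starved and fed control muscle. The median of the 50 turned to -0.0067 with quantile normalization and to -0.023 with arrays scaled on bright genes.

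**Figure D3:**
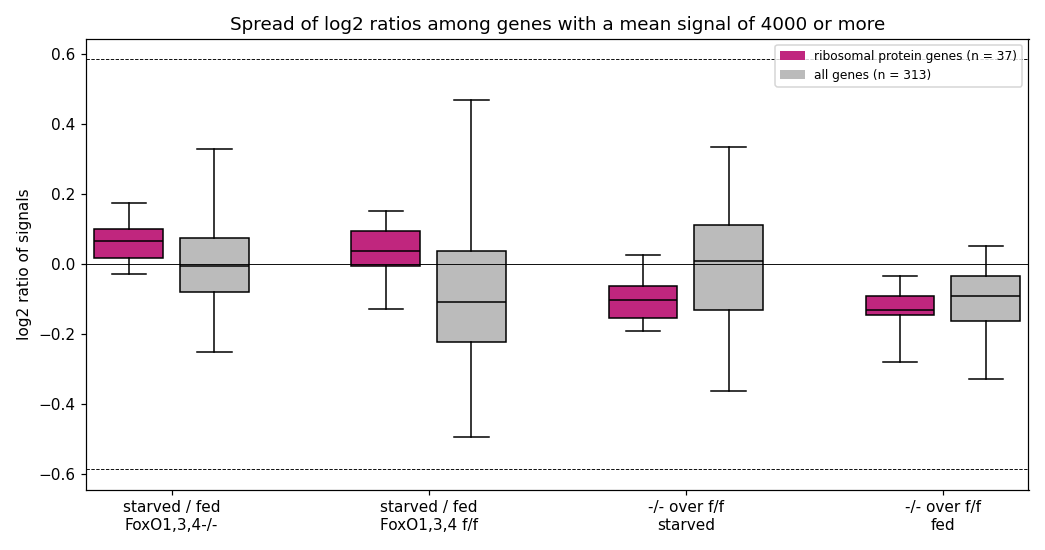
Box plots of log2 ratios in the 4 comparisons for the 37 bright ribosomal protein genes and for all genes of the same brightness (n = 313, the 37 included); boxes span the quartiles with a line at the median, whiskers run from the 5th to the 95th percentile of genes, and dashed lines mark 1.5-fold. The interquartile range of the 37 was 0.083 and 0.10 for starvation in knockout and control muscle, and the place of the knockout over control medians relative to 0 changes with the scaling of the arrays.

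Knockout signals were slightly lower than control signals as deposited, a direction that changed with the scaling of the arrays. In starved muscle, 2 of the 50 genes were past 1.5-fold upwards in knockout over control (Rpl39l and Rps16) and 2 downwards (Rps27 and Rps4l), against 6.38% and 14.6% of all genes. In fed muscle none was past upwards and 2 downwards (Rpl39l and Rps4l), against 3.38% and 11.3%. The median log2 ratio of the 50 was -0.10 in starved and -0.14 in fed muscle, against -0.16 and -0.20 over all genes, and it became 0.082 and 0.0072 once each array had the same median signal and -0.030 and -0.021 with quantile normalization. Relative to the median of all genes, the 50 stood 0.061 higher in starved and 0.059 higher in fed muscle, which scaling to a common median or trimmed mean leaves as it is, but this distance was -0.049 and -0.019 with quantile normalization. Most of the 50 are bright, and against genes of their own brightness the bright ones stood lower, as given below.

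As deposited, the bright genes took part in this difference nearly as a block, in fed muscle along with most other genes of their brightness. All 37 were lower on the fed knockout array than on the fed control array. So were 264 of the 313 genes of this brightness and 9793 of all 12565 genes. Once each array had the same median signal, 27 of the 37 were higher in fed knockout muscle instead. In starved muscle, 33 of the 37 were lower in knockout as deposited, against 150 of the 313 genes of this brightness and 8435 of all 12565. As deposited, the fed knockout array was the lowest of the 4 for 33 of the 37. Both knockout signals were below both control signals for 27 of the 37 (73.0%), against 84 of the 313 genes of this brightness (26.8%), but once each array had the same median signal this held for 0 and the opposite held for 10, while with quantile normalization it held for 12 and the opposite for 2. Of the 313, 1.6% passed 1.5-fold upwards and 1.92% downwards in starved muscle, and none upwards and 0.639% downwards in fed muscle. The median log2 ratio of the 37 was -0.10 in starved muscle, against 0.0098 over the 313, and -0.13 in fed muscle, against -0.089. The 37 thus stood lower than genes of this brightness, and this held under every scaling that was tried. With the same median, the medians were 0.081 against 0.19 in starved and 0.014 against 0.055 in fed muscle. With quantile normalization they were -0.055 against 0.066 in starved and -0.016 against 0.013 in fed muscle. The sum of the macrophage and leukocyte markers moved with the genotype in the same way as deposited. Over 6 markers, none at 0, it was 3736.7 and 3949.3 on the starved and fed knockout arrays, against 4924.1 and 5086.0 on the starved and fed control arrays. Of these, Cd68 went the other way in starved muscle, with 147.3 in knockout, against 127.5 in control. With the same median signal on each array, the 6 markers had a median log2 ratio of -0.18 in starved and -0.24 in fed muscle. The 50 ribosomal protein genes had 0.082 and 0.0072 under that scaling. The endothelial markers summed to 1861.1 and 1926.4 in knockout muscle, against 2144.6 and 2452.5 in control muscle, over 5 markers with none at 0. Their part in the result was not tested.

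Bright members with well-known roles differed in the size of the gap between genotypes. It ran from -0.014 (Rplp2) to -0.28 (Rpl11) on the log2 scale in fed muscle as deposited, while the dim Rps6 was at -0.45. These values shift with the scaling of the arrays. Rplp0, the base of the stalk that recruits translation factors, had 10405.2 and 10608.5 in starved and fed knockout muscle, against 11024.8 and 11288.3 in starved and fed control muscle. Rplp2, which sits on that base, had 10591.1 and 10469.0 in knockout muscle, against 11724.6 and 10574.5 in control muscle, so that the starved control array alone stood above the other 3. Rpsa, which is also known as the laminin receptor precursor, had 6520.1 and 6424.4 in knockout muscle, against 7357.1 and 7069.8 in control muscle. Rpl11, which with Rpl5 can bind and inhibit Mdm2 when ribosome assembly fails, had 5340.7 and 4830.6 in knockout muscle, against 6377.2 and 5862.3 in control muscle. Rps19, the gene most often mutated in human Diamond-Blackfan anaemia, had 4675.5 and 4313.9 in knockout muscle, against 5225.3 and 5104.3 in control muscle. Rpl4, of the large subunit, had a log2 ratio of -0.021 in fed muscle, with 9190.6 and 9100.0 in knockout muscle, against 9867.5 and 9234.0 in control muscle. In Rplp0, Rpsa, Rpl11 and Rps19 both knockout signals lay below both control signals as deposited, an order that the scaling of the arrays can change.

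The 2 subunits were compared next. Among the bright core genes, 17 of each subunit, the median log2 ratio for starvation was 0.074 for the large and 0.046 for the small subunit in knockout muscle, and 0.071 and 0.027 in control muscle. For knockout over control it was -0.12 for the large and -0.074 for the small subunit in starved muscle, and -0.12 and -0.14 in fed muscle, all of which shift with the scaling of the arrays. The median difference of the starvation responses, knockout minus control, was -0.017 for the large and 0.062 for the small subunit, with interquartile ranges of 0.079 and 0.10 within them.

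The paralogues stood at very different signals from one another and were 3 of the 6 genes past 1.5-fold in any of the 4 comparisons (Rpl39l, Rpl7l1 and Rps4l, beside Rpl39, Rps27 and Rps16). Rpl3l replaces Rpl3 in ribosomes of skeletal and heart muscle. It had 3891.1 and 4153.7 in starved and fed knockout muscle, against 3781.5 and 4345.3 in starved and fed control muscle, and was thus lower on the starved array in both genotypes, with log2 ratios of -0.09 and -0.20. In the other direction, Rpl22l1, which can take the place of Rpl22 and whose transcript RPL22 is known to hold down, had 4939.5 and 4030.2 in knockout muscle, against 5877.8 and 5294.4 in control muscle. Its ratios were 0.29 for starvation in knockout and 0.15 in control muscle, the farthest of any bright gene in knockout muscle, and -0.39 for knockout over control in fed muscle, the lowest of the 37. Rpl22 itself had 7803.6 and 7707.2 in knockout muscle, against 8827.5 and 8541.2 in control muscle, a difference between starved and fed arrays of 0.018 and 0.048 on the log2 scale.

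Rps27l, a paralogue of Rps27 that p53 induces, was with Rplp0 and Rpl3l one of 3 bright genes that were lower on the starved array in both genotypes as deposited, of which Rplp0 did not stay lower in both with the same median, the same trimmed mean or bright-gene scaling. It had 5097.0 and 5486.1 in starved and fed knockout muscle, against 5650.3 and 6180.5 in starved and fed control muscle, log2 ratios of -0.11 and -0.13. All 3 of its probe sets gave the same direction in both genotypes, between -0.19 and -0.045 in knockout muscle and between -0.21 and -0.13 in control muscle. Rps27 was dim, with 78.8 and 82.1 in knockout muscle, against 126.5 and 75.1 in control muscle, so that the starved control array alone was high (log2 ratio 0.75 in control and -0.06 in knockout muscle). Rps4x, the X-linked small subunit gene, was bright and level, with 9012.9 and 8772.8 in knockout muscle, against 9413.9 and 9456.0 in control muscle. Its paralogue Rps4l had 72.3 and 78.4 in knockout muscle, against 110.7 and 132.8 in control muscle. Rps4l passed 1.5-fold in knockout over control in both states as deposited, at -0.61 in starved and -0.76 in fed muscle, but both calls depended on the scaling. In starved muscle its ratio lay between -0.48 and -0.42 under the other scalings, and in fed muscle it was -0.57 with the same trimmed mean, -0.56 with quantile normalization and -0.57 with bright-gene scaling, all inside 1.5-fold, and -0.62 with the same median.

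Rpl7l1, a paralogue of Rpl7 with a part in large subunit assembly, has 3 probe sets, which differed in size. The brightest had 270.3 and 259.4 in starved and fed knockout muscle, against 231.2 and 378.1 in starved and fed control muscle, so that the fed control array was high and the other 3 were close. Its log2 ratio for starvation was 0.06 in knockout and -0.71 in control muscle, a difference of 0.77. A second probe set of nearly the same brightness had 224.3 and 263.0 in knockout muscle, against 242.6 and 308.5 in control muscle. Its log2 ratios were -0.23 in knockout and -0.35 in control muscle, a difference of 0.12, so that neither the call nor the difference past 1.5-fold was seen there. The third probe set was dim, with 34.7 and 30.5 in knockout muscle, against 36.5 and 50.5 in control muscle. Its log2 ratios were 0.19 and -0.47, both inside 1.5-fold, and their difference of 0.65 was past it. Rpl7 had 6604.7 and 6275.9 in knockout muscle, against 7030.7 and 7289.9 in control muscle. Rpl39, a short protein that lines the exit tunnel, was the one gene past 1.5-fold in the same direction in both genotypes. It had 77.0 and 133.7 in starved and fed knockout muscle, against 63.4 and 112.0 in starved and fed control muscle, with both starved signals below both fed signals and log2 ratios of -0.80 and -0.82. It kept these directions past 1.5-fold under every scaling that was tried, and it has 1 probe set. The sum of the fibroblast markers moved in the same way: over 5 markers, none at 0, it was 19752.3 and 25309.5 on the starved and fed knockout arrays, against 21242.5 and 28039.3 on the starved and fed control arrays, and 3 were past 1.5-fold downwards after starvation in knockout and 2 in control muscle. All of those past it were collagens. Dcn was level in knockout muscle, with 12263.5 starved and 12288.5 fed, and had a log2 ratio of -0.13 in control muscle. Pdgfra had log2 ratios of -0.095 in knockout and -0.28 in control muscle. The part of these markers in the Rpl39 values was not tested. Its paralogue Rpl39l, known from mouse male germ cells, had 21.5 and 12.2 in knockout muscle, against 13.3 and 26.9 in control muscle, all below the array medians of 22.9 to 26.3 but for the fed control signal. Some hair and epidermis markers were likewise high on the starved knockout and fed control arrays. Krt25, a hair follicle keratin, had 318.5 and 18.2 in starved and fed knockout muscle, against 6.9 and 252.9 in starved and fed control muscle, and S100a3 and Krt71 were also highest on those 2 arrays, whereas Krt10, Krt14 and Lor did not. Over the 6 markers, none at 0, the sum was 1017.6 and 876.4 in knockout muscle, against 589.8 and 727.9 in control muscle. Their part in the Rpl39l values was not tested.

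The remaining dim genes hold core subunits whose probe sets read little. Rps6, the small subunit protein that S6 kinases phosphorylate, had 357.2 and 307.6 in starved and fed knockout muscle, against 382.7 and 419.9 in starved and fed control muscle, so that the starved array was higher in knockout and lower in control muscle (log2 ratios 0.22 and -0.13, both inside 1.5-fold). Rps25, a small subunit protein, had 137.6 and 113.1 in knockout muscle, against 189.0 and 145.7 in control muscle. Rpl37, a large subunit protein, had 828.5 and 849.1 in knockout muscle, against 1021.6 and 1094.4 in control muscle. Rps19bp1, the protein that binds RPS19 and no subunit, had 156.6 and 155.2 in knockout muscle, against 137.7 and 179.1 in control muscle. The 5 dimmest were Rps27, Rpl12, Rpl14, Rpl39l and Rps16. Rpl12 and Rpl14, both large subunit proteins, stayed between 67.9 and 89.0 and between 49.1 and 59.5 on the 4 arrays. Rps16, a small subunit protein, read 0.9 and 0.4 in knockout muscle, against 0.4 and 0.3 in control muscle, far under the array medians, and is the one gene of the 50 that did not pass the filter. Its ratios past 1.5-fold are ratios of such signals.

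Probe sets of one gene read the same RNA pool, so their spread shows how far probes differ and says nothing of the spread between mice, pools or arrays. Over 18 genes with several probe sets of mean signal of at least 1000 (51 probe sets), the standard deviation of log2 ratios within a gene was 0.093 and 0.10 for starvation in knockout and control muscle and 0.12 for knockout over control in either state. Over 8 genes with several probe sets under 500 (18 probe sets) it was between 0.63 and 1.05. Rps18, of the small subunit head, was the one gene whose probe sets disagreed past 1.5-fold in direction, from -1.69 to 1.37 for knockout over control in starved muscle. Its 3 bright sets gave -0.18, -0.11 and 0.013 there, and the disagreement came from its 3 sets with signals of 7.5 or less. A second probe set of Rps9, of the _x_at kind, moved more than the one that stood for it. It had 2112.3 and 1324.5 in starved and fed knockout muscle, against 3930.5 and 2703.0 in starved and fed control muscle. Its log2 ratios for starvation were 0.67 in knockout and 0.54 in control muscle. For knockout over control they were -0.90 in starved and -1.03 in fed muscle as deposited. All but the 0.54 were past 1.5-fold, though this set was not used for the calls.

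Ribosomal protein genes have many near-identical processed pseudogenes, and the probe sets do not all tell them apart. Of the 37 bright genes, 14 were read by a probe set whose name ends in _x_at and 2 by one ending in _s_at, the endings that mark probes that can match other transcripts, so their signals are uncertain in that respect. A further 110 probe sets carry a ribosomal protein symbol beside other genes and so name no single gene. The 80 of these with a mean signal of at least 1000 had a median log2 ratio for starvation of 0.064 in knockout and 0.073 in control muscle and, for knockout over control, of -0.14 in starved and -0.13 in fed muscle as deposited, the last 2 shifting with the scaling of the arrays. None of the 80 passed 1.5-fold in these comparisons.

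Among other transcripts with a TOP tract, a few had larger ratios than the bright ribosomal protein genes. Of 15 such genes past the filter, 2 were past 1.5-fold upwards after starvation in knockout muscle and 2 in control muscle, against 7.38% and 9.23% of all genes, and none downwards, against 9.45% and 14.2%, with medians of 0.074 and 0.12. The 2 were Gas5 and Hnrnpa1 in both genotypes. Gas5, a snoRNA host gene whose RNA is degraded when it is translated, had 1729.1 and 1002.1 in starved and fed knockout muscle, against 3057.3 and 1419.2 in starved and fed control muscle, log2 ratios of 0.79 and 1.11. Hnrnpa1, which encodes an RNA-binding splicing factor, had 1058.4 and 637.5 in knockout muscle, against 1546.4 and 777.9 in control muscle, log2 ratios of 0.73 and 0.99. Npm1, the nucleolar chaperone nucleophosmin, had log2 ratios of 0.34 in knockout and 0.35 in control muscle, inside 1.5-fold. Eef2, the translocation factor of elongation, had 5536.1 and 5062.0 in knockout muscle, against 5791.5 and 5167.0 in control muscle. Fau, a ribosomal protein whose symbol the rule does not take, had 6418.3 and 5918.3 in knockout muscle, against 6640.5 and 6296.7 in control muscle.

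Ribosome assembly genes moved more than the ribosomal proteins after starvation in control muscle. Of 45 biogenesis genes, all past the filter, 8 were past 1.5-fold upwards in control muscle (Gnl3, Tsr1, Rrs1, Nop14, Sbds, Nolc1, Nob1 and Rrp12) and none downwards, 17.8% upwards against 9.23% of all genes upwards and 14.2% downwards, with a median log2 ratio of 0.25. In knockout muscle none was past upwards and 1 downwards (Rrp9, with 17.1 in starved and 40.5 in fed muscle), against 7.38% and 9.45% of all genes, with a median of 0.079. Under the other scalings 10 or 11 were past upwards in control muscle and 0 in knockout muscle. Gnl3, the nucleolar GTPase nucleostemin, had 758.4 and 581.3 in starved and fed knockout muscle, against 1351.5 and 543.4 in starved and fed control muscle. Rrs1, an assembly factor that brings the 5S particle into the large subunit, had 526.8 and 419.4 in knockout muscle, against 1068.9 and 571.8 in control muscle. Tsr1, which acts late in small subunit assembly, had 573.6 and 429.9 in knockout muscle, against 856.0 and 427.8 in control muscle. In all 3 the starved control array was the highest of the 4, and the starved knockout array was above both fed arrays for Gnl3 and Tsr1.

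As deposited, the difference of the 2 starvation responses was past 1.5-fold downwards for 5 of the 45 biogenesis genes (11.1%), a share near the 10.4% of all genes, and upwards for none, against 12.3%. Under the other scalings, 4 to 8 were past downwards (8.89% to 17.8%), against 9.4% to 11.9% of all genes. The median difference was -0.22 as deposited, against 0.041 over all genes and 0.036 over the ribosomal proteins. With 1 array per group this gap was not tested. Between genotypes in starved muscle, 11 of the 45 (24.4%) were past 1.5-fold downwards, against 14.6% of all genes, and 5 or 6 (11.1% to 13.3%) under the other scalings, against 8.27% to 9.45% of all genes. Among regulators, Myc, which drives transcription of ribosome assembly genes, had 81.0 and 78.8 in starved and fed knockout muscle, against 193.9 and 89.2 in starved and fed control muscle, so that the starved control array alone was high. Larp1, which binds the TOP tract, had 547.7 and 551.4 in knockout muscle, against 749.3 and 693.0 in control muscle. Maf1, a repressor of RNA polymerase III, had 1005.5 and 1119.0 in knockout muscle, against 1441.3 and 1448.0 in control muscle. Mtor had 316.4 and 292.4 in knockout muscle, against 355.5 and 309.3 in control muscle. Rps6kb2, an S6 kinase, went the other way, with 79.9 and 81.7 in knockout muscle, against 57.7 and 64.4 in control muscle. These signals are as deposited, and the gaps between genotypes shift with the scaling of the arrays. The sums of fat and of macrophage markers were also higher on the control arrays. Over 2 fat markers, neither at 0, the sum was 15963.1 and 15366.6 in knockout muscle, against 19492.9 and 17387.4 in control muscle. Single markers did not all follow: Fabp4 had 13452.5 in starved knockout muscle, against 13375.9 in fed control muscle, and Cd68 was highest on the starved knockout array. The part of these markers in these differences was not tested.

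**Figure D4:**
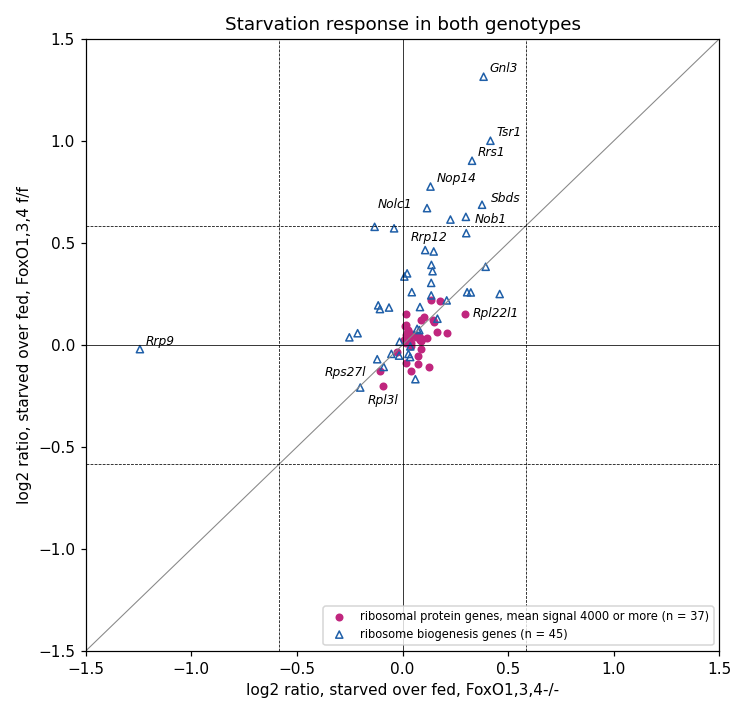
Starvation response in FoxO1,3,4-/- muscle (horizontal axis) against that in FoxO1,3,4 f/f muscle (vertical axis), both as log2 ratios of starved over fed signals, for the 37 bright ribosomal protein genes and 45 ribosome biogenesis genes; dashed lines mark 1.5-fold and the diagonal marks equal responses. The ribosomal proteins cluster near 0, whereas 8 biogenesis genes lie above the dashed line on the vertical axis alone. The biogenesis genes are dimmer, and the sets are not matched for signal.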

How the data were processed

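RNA of gastrocnemius muscles of 3 mice per condition was pooled by the study and hybridised to 1 array per group (4 arrays). The values deposited are MAS 5.0 signal intensities, which the authors left on a linear scale, and no further normalization was applied. Affymetrix Expression Console is also named in the notes of the submitters. Neither a scaling target nor detection calls are given in the sources used here. A signal that probes share with another transcript includes both.

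Affymetrix control probe sets were left out, which left 45037, of which 34945 are annotated to 1 gene, 932 to several and 9160 to none. Symbols come from GEO's platform annotation, and 34741 of the single-gene probe sets were matched to RefSeq by gene ID. A gene passed the filter where its signal was at or over the array median (percentile 50) on at least 1 array. Signals under 0.1 were set to 0.1. Each gene was represented by its brightest probe set over the 4 arrays, and log2 ratios were computed in pandas 2.3.3 and numpy 2.4.6 (Python 3.11.15). Plots were made in matplotlib 3.10.9. The calculation was tested on simulated data. With 1 array per group there is no test, so that precision is limited by the number of arrays. The 50 genes, the lists of TOP, biogenesis, regulator and marker genes and the comparisons were chosen with earlier results of these data known. Genes named are the paralogue pairs, a set of well-studied members, the 5 highest and 5 lowest ratios and all members past 1.5-fold in a comparison, the 5 brightest and 5 dimmest, and those whose probe sets disagree. Rps9, Rps15, the further probe sets of Rpl7l1 and named genes of the other lists were chosen after their values were seen. The alternatives were array scaling (same median, same trimmed mean without the highest and lowest 2%, quantile), an offset of 16, the probe set or mean of probe sets used, the filter and thresholds of 2-fold and of a ratio 25% above 1. Scaling on genes with a mean signal of at least 1000, and leaving out members under 500, were added after the data were seen.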

Additional observations from a re-analysis of the deposited data

Results flagged for a closer look

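Rpl39l moved past 1.5-fold in opposite directions after starvation in the 2 genotypes, with a log2 ratio of 0.82 in knockout muscle and -1.02 in control muscle. The difference was not tested, since each group has 1 array. The hair markers Krt25, Krt71 and S100a3 were also high on the starved knockout and fed control arrays. Krt10, Krt14 and Lor, of the same marker list, did not follow this pattern and were each lowest on the fed control array. The part of these markers was not tested. The signals of Rpl39l were between 12.2 and 26.9, near or below the array medians. With an offset of 16 its ratios became 0.41 and -0.55. Groups of 1 array have no check for a sample that stands apart from its group.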

How the results depend on the processing

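Medians for starvation stayed above 0 in both genotypes under every alternative, while those for knockout over control kept their direction under quantile normalization (-0.030 in starved and -0.021 in fed muscle) and turned under the 3 other scalings. Median log2 ratios for knockout over control became 0.082 in starved and 0.0072 in fed muscle with the same median, 0.076 and 0.057 with the same trimmed mean, and 0.032 and 0.055 with scaling on bright genes. Members past 1.5-fold downwards in starved muscle numbered 0 under each of these scalings and under quantile normalization, and in fed muscle 1 was up and 1 down under trimmed mean, quantile and bright-gene scaling. These shifts follow from the scaling of the arrays.

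With an offset of 16, 0 members were up for starvation in knockout muscle, and 0 were up and 1 down for knockout over control in starved muscle. Averaging the log2 ratios of each gene's probe sets, starvation gave 6 up and 2 down in knockout and 3 up in control muscle, knockout over control gave 4 down in starved muscle and 1 up and 4 down in fed muscle, and the difference of responses gave 3 down. Without _x_at and _s_at probe sets, 45 genes remained, with 4 up in knockout and 2 up in control muscle for starvation, 4 down for knockout over control in fed muscle and 5 up for the difference. With the threshold at a ratio 25% above 1 or its inverse, 3 were up for starvation in control muscle, 1 was up and 8 down for knockout over control in fed muscle, and 5 were up for the difference. At 2-fold, starvation gave 1 up and 0 down in knockout muscle and 0 up and 1 down in control muscle, knockout over control gave 1 up and 0 down in starved and 1 down in fed muscle, and the difference gave 1 up and 0 down. With members under a mean signal of 500 left out, 38 remained and 0 were up or down in every comparison. Choosing probe sets by their fed signals changed no count of members. The filter was applied to the other genes alone, so no filter or one at percentile 75 could change only the shares of all genes.

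No paired analysis was possible because each group has 1 array, and for the same reason no replicate could be left out. With the settings of the report, all calls past 1.5-fold rest on genes with mean signals of 376 or less, of which Rpl39, Rpl39l, Rps27, Rps4l and Rps16 have 1 probe set each, so that no second probe set bears on them.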
